A study of Mus musculus with 5 samples.

Results

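The 8 genes described here encode the receptor chains through which group 2 innate lymphoid cells (ILC2s) receive IL-33, TSLP, IL-25, IL-18 and IL-7. They were taken by symbol, Il1rl1, Il1rap, Crlf2, Il7r, Il17rb, Il17ra, Il18r1 and Il18rap, and each was present among the 27726 genes that the 5 libraries have in common. The libraries hold single-cell RNA of ILC2s sorted from the lungs of wild-type C57BL/6 female mice aged 4 to 8 weeks, each a pool from 5 mice. Naïve ILC2s (1 library) came from mice with neither tumour nor IL-33 treatment. Tumour-associated ILC2s came from mice injected subcutaneously in the flank with TC1 lung tumour cells, so that the lung was a distant tissue. They were sequenced as isolated at weeks 2 and 3 (ta-non-activated, 2 libraries) or after being cultured for a further week in rhIL-2, rmIL-33 and TSLP (ta-activated, 2 libraries, weeks 2 and 3). Every library was sorted as Lin- ST2+ CD127+ Thy1.2+ CD45+, and ST2 is the protein of Il1rl1 and CD127 that of Il7r, so that both genes belong to the gate.

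Epithelial cells under damage release the alarmins IL-33, TSLP and IL-25, which activate ILC2s in the lung. IL-33 binds ST2 (Il1rl1), which then recruits the accessory chain IL-1RAcP (Il1rap), and IL-18 acts in the same way through Il18r1 and Il18rap, both receptors signalling through MyD88 and IRAK kinases. TSLP binds the TSLP receptor chain (Crlf2) paired with IL-7Rα (Il7r), which also serves IL-7 together with the common gamma chain, both through JAK kinases and STAT5, and IL-25 binds IL-17RB (Il17rb) paired with IL-17RA (Il17ra).

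Il1rl1, Il18r1 and Il18rap lie side by side on the same strand of chromosome 1 (GRCm38), at chr1:40429570-40465415, chr1:40465552-40500854 and chr1:40515362-40551705, with 136 bases between the first 2 and 14507 bases between the last 2. These neighbours differed in where they were high, as described further on, and 250 bases before RefSeq start sites of each are shown, together with those of Il7r. The second Il1rl1 window, the Il18r1 window shown and the Il7r window lie within the annotated genes (Il7r at chr15:9505788-9530176). The sequences are RefSeq promoter windows on GRCm38.p6, written 5′ to 3′ on the strand of the gene, and capitals mark either AGATAA or AGATAG, and likewise TGATAA or TGATAG (the core bound by GATA factors such as GATA3) or TTCNNNGAA (the STAT core), in either orientation.
Il1rl1, chr1:40429320-40429569, plus strand: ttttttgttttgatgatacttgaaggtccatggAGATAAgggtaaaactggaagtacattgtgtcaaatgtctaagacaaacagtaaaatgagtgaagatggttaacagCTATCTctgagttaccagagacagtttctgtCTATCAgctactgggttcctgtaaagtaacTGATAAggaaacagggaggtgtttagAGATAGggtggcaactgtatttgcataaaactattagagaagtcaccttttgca
Il1rl1, second start, chr1:40439379-40439628, plus strand: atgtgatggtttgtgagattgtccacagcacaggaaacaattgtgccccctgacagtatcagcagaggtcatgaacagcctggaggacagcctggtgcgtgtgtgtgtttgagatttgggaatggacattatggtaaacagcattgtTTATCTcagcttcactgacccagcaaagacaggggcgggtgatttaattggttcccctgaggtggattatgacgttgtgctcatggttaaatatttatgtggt
Il18r1, start within the annotated gene, chr1:40465756-40466005, plus strand: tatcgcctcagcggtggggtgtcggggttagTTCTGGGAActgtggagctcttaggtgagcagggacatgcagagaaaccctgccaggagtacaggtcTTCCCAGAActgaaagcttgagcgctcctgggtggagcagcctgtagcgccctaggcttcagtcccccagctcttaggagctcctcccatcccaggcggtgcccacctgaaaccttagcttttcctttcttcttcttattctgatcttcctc
Il18rap, chr1:40515112-40515361, plus strand: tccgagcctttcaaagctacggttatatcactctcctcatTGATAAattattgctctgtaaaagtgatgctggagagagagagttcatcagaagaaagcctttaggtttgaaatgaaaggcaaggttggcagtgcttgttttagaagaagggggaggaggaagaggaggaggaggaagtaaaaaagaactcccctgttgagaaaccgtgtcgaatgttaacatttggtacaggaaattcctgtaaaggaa
Il7r, chr15:9529877-9530126, minus strand: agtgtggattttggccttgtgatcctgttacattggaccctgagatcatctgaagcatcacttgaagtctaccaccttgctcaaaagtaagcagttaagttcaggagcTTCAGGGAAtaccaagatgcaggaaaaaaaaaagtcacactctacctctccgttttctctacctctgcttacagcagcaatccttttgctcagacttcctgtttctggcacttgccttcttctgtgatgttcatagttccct
The upstream Il1rl1 window held 5 GATA matches, at 217, 141, 110, 80 and 54 bases before the start. Of all 32851 promoter windows of this length, 26.5% held at least 1 GATA match and 14 windows (0.0426%) held 5 or more, while 7.02% held a STAT match. The window before the second Il1rl1 start held 1 GATA match and that of Il18rap 1. The Il18r1 window shown held 2 STAT matches and the Il7r window 1. RefSeq windows were found for 7 of the 8 genes (10 windows in all), of which 3 held a GATA match and 2 a STAT match. The other 2 Il18r1 windows, among them the one before the annotated gene start, held neither match and are not shown. The matches describe the letters and say nothing of binding.

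Cells were kept where 200 genes or more were detected and mitochondrial UMIs stayed under 5%, and they numbered 6389 naïve, 1823 and 1601 ta-non-activated (week 2, then week 3) and 2895 and 3822 ta-activated. Their median depth was 4517 unique molecular identifiers (UMIs) in naïve cells, 16090 and 4396 in ta-non-activated cells and 13636 and 12296.5 in ta-activated cells, and pairs of libraries shared 1 to 8 barcodes. Clusters called ILC2-like from marker genes held 60.8% of naïve cells, 78.4% and 42.8% of ta-non-activated cells and 67.0% and 87.5% of ta-activated cells. A cluster was so called where at least 3 ILC2 markers exceeded 10 CPM, their sum exceeded that of every other marker list, and no other list had more markers than the ILC2 list among its 10 leading genes. This left out clusters with high ILC2 marker sums, such as cluster 2 of week 2 ta-non-activated cells (12538 CPM), cluster 4 of week 3 ta-activated cells and cluster 0 of week 2 ta-activated cells (5313 CPM, 28.9% of cells). The week 3 ta-non-activated library stood apart, with 12 T-cell markers summing to 6717 CPM (UMIs per 1000000 UMIs) against 373 to 1329 CPM in the other 4 libraries, and 4 immature T-cell markers (Rag1, Rag2, Dntt and Ptcra) at 1144 CPM against under 1 CPM. Levels of the 8 receptor genes are therefore given both over all kept cells and over ILC2-like clusters. A level is the CPM of a gene in the summed cells, with exact Poisson 95% intervals that cover counting error only, and in such sums fewer expressing cells and less RNA per cell cannot be told apart.

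Il1rl1, the IL-33-binding chain, was higher in the naïve library than in any of the other 4. Its level there was 791 CPM (95% interval 781 to 800). In the ta-non-activated libraries it was 56.3 CPM (53.8 to 58.9) at week 2 and 82.9 CPM (77.2 to 88.9) at week 3. After culture it was 46.7 CPM (44.9 to 48.5) at week 2 and 121 CPM (118 to 124) at week 3. The groups of 2 overlapped, with a mean of 69.6 ± 18.8 CPM (SD, n = 2) in ta-non-activated and 83.8 ± 52.5 CPM in ta-activated ILC2s. The counts are of the whole gene and cannot separate the membrane form from the soluble ST2 decoy.

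Over ILC2-like clusters Il1rl1 was 963 CPM in naïve cells, 54.1 and 377 CPM in ta-non-activated cells and 51.7 and 131 CPM in ta-activated cells. The week 3 ta-non-activated value was thus far above that over all cells of that library, where clusters that were not ILC2-like held 57.2% of the cells and 2.70% of the Il1rl1 UMIs. In this class of cells week 3 lay 2.55-fold below naïve and week 2 17.5-fold below (folds between libraries are on the log2(CPM + 1) scale). The 2 ta-non-activated libraries therefore differed from each other more in ILC2-like clusters than over all kept cells.

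Il1rap, the chain that IL-33 and IL-1 receptors share, was also highest in naïve cells. It stood at 23.3 CPM there, at 3.37 CPM (week 2) and 2.98 CPM (week 3) in ta-non-activated cells and at 2.74 and 3.36 CPM after culture. These last 4 values overlapped within their counting intervals (1.98 to 4.31 CPM for the widest). Il1rap has the longest introns of the 8 genes (137054 bases), a feature that bears on the naïve contrast and is taken up with it.

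Crlf2, the specific TSLP chain, was the gene whose fresh libraries lay closest together and whose cultured libraries lay highest. Naïve cells held 46.7 CPM, ta-non-activated cells 41.7 and 43.4 CPM, and cultured cells 122 and 92.2 CPM. Both cultured values were above the 3 fresh ones. In ILC2-like clusters both cultured values again lay above the 3 fresh ones, by less at week 3 than at week 2 (40.1 and 110 CPM). At week 3 the values were 82.5 CPM (70.4 to 96.1, from 166 UMIs) before culture and 96.1 CPM (93.5 to 98.8) after it. These week 3 intervals overlapped.

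Il7r, the chain shared by TSLP and IL-7, reached 1372 CPM in naïve cells, against 168 CPM (week 2) and 424 CPM (week 3) in ta-non-activated cells and 566 and 690 CPM after culture. Both cultured values lay between the naïve and the ta-non-activated values. Restricted to ILC2-like clusters, the week 3 ta-non-activated value was 1460 CPM, beside 1346 CPM in naïve cells, and was then above the 754 CPM of its cultured counterpart. At week 2 it was 160 CPM before culture and 484 CPM after it.

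Il17rb, the IL-25-binding chain, split the fresh libraries and was close to absent in culture. Its level was 54.6 CPM in the naïve library, 2.11 CPM at week 2 and 35.3 CPM at week 3 of the ta-non-activated ILC2s. The ta-activated libraries held 23 and 20 Il17rb UMIs in all, that is 0.401 CPM (0.254 to 0.602) and 0.323 CPM (0.198 to 0.4996). In ILC2-like clusters the same 5 values were 60.3, 1.91, 42.3, 0.3001 and 0.344 CPM. Its partner Il17ra, shared by several IL-17 receptors, varied less, at 39.9 CPM in naïve cells, 10.2 and 25.1 CPM before culture and 18.0 and 23.2 CPM after it.

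Il18r1, the IL-18-binding chain, was 167 CPM in naïve cells, 7.13 CPM (week 2) and 13.4 CPM (week 3) in ta-non-activated cells and 36.9 and 94.1 CPM in cultured cells. Il18rap, its accessory chain, was 128, 21.0, 14.1, 41.0 and 151 CPM in the same order. Over all kept cells each cultured library lay above both ta-non-activated libraries for both genes. For Il18rap the week 3 cultured library was the highest of the 5. In ILC2-like clusters the week 2 cultured level lay below the week 3 ta-non-activated one for both genes. There Il18r1 was 27.6 CPM (26.1 to 29.2) against 33.8 CPM (26.2 to 42.9), intervals that overlapped. Il18rap was 36.8 CPM (35.1 to 38.6) against 61.1 CPM (50.8 to 73.0). Over ILC2-like clusters the naïve level of Il18r1 was 62.6 CPM, below the 92.0 CPM of the week 3 cultured cells, and 75.8% of its naïve UMIs lay outside ILC2-like clusters.

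**Figure D1:**
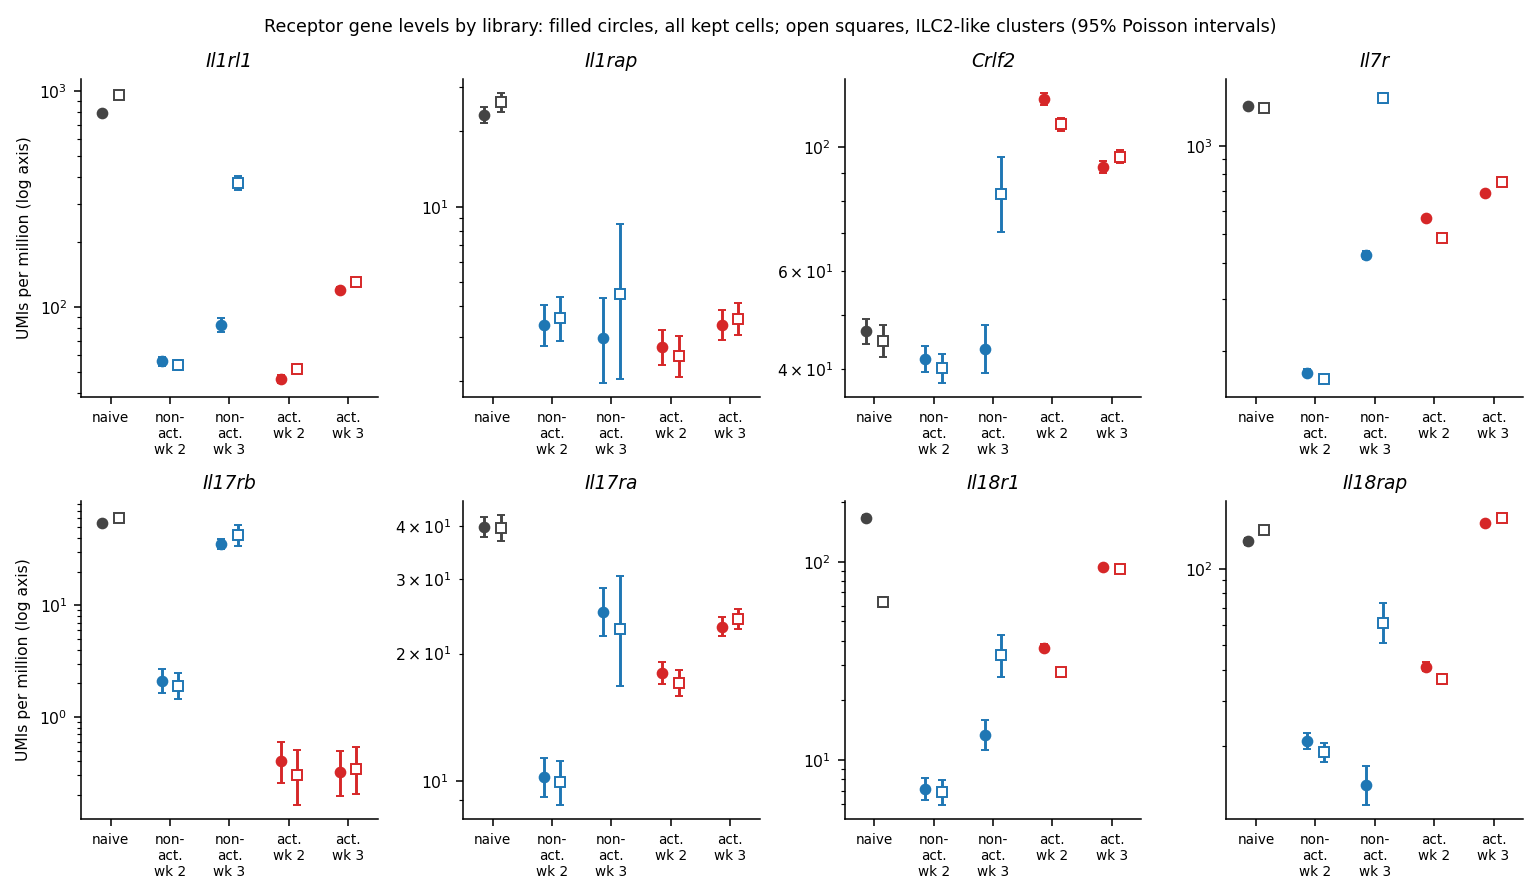
Level of each receptor gene in CPM (log axis, a separate scale for each gene) in the naïve, ta-non-activated (non-act.) and ta-activated (act.) libraries of weeks (wk) 2 and 3, over all kept cells (filled circles) and over ILC2-like clusters (open squares), with 95% Poisson intervals. Il17rb falls below 1 CPM in both cultured libraries, Crlf2 is above 90 CPM in both, and the open squares of week 3 ta-non-activated cells lie far above the circles for Il1rl1 (377 against 82.9 CPM) and Il7r (1460 against 424 CPM).

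The plot of levels by library shows that the receptors did not move as 1 block. Over all kept cells Il1rl1, Il1rap, Il7r, Il17rb, Il17ra and Il18r1 ranked highest in the naïve library. Crlf2 did so in the week 2 cultured library and Il18rap in the week 3 cultured library. In ILC2-like clusters Il7r ranked highest in the week 3 ta-non-activated library (1460 CPM). Il18r1 ranked highest there in the week 3 cultured library (92.0 CPM). Over all kept cells, Il1rap did not separate the 4 tumour-associated libraries beyond counting error, and Crlf2 did not separate the 2 ta-non-activated ones. In ILC2-like clusters Crlf2 did separate the 2 ta-non-activated libraries (40.1 against 82.5 CPM). Il1rap there separated the 2 cultured ones (2.53 CPM, 2.09 to 3.03, against 3.57 CPM, 3.08 to 4.12).

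The first question of the design was how lung ILC2s of tumour-bearing mice differ from naïve ones, and each ratio rests on 1 library a side and was not tested. At week 2, 7 of the 8 receptor genes were more than 2-fold lower than in the naïve library and 0 were higher, beside 34.4% lower and 21.4% higher of all 8326 genes with at least 10 CPM in either library. Il18r1 (20.6-fold), Il17rb (17.9-fold) and Il1rl1 (13.8-fold) lay lowest, and Crlf2 differed by 1.12-fold. At week 3, 5 of 8 were more than 2-fold lower and 0 higher, beside 28.8% and 19.4% of 8529 genes. Here Il18r1 was 11.6-fold, Il1rl1 9.43-fold, Il18rap 8.59-fold, Il1rap 6.11-fold and Il7r 3.23-fold lower, whereas Il17rb and Il17ra were 1.53-fold and 1.56-fold lower and Crlf2 1.07-fold.

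Within ILC2-like clusters, 7 receptor genes were again more than 2-fold lower at week 2 (34% of all genes were lower and 23.9% higher), but the count at week 3 was 3, Il1rl1, Il1rap and Il18rap, beside 26.4% lower and 4.31% higher, so that 3 of 8 is close to the background. Il18r1 was 8.08-fold lower at week 2 and 1.83-fold lower at week 3 in these clusters, both smaller gaps than over all kept cells. Il7r at week 3 was 1.08-fold higher instead of 3.23-fold lower, and Crlf2 was 1.82-fold higher. The week 3 shortfall of Il7r over all kept cells was therefore not present in ILC2-like cells of that library.

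The naïve matrix was made with another version of Cell Ranger, and genes with long introns had higher levels in it. It also lists 28831 genes, against 27726 in each ta-non-activated and ta-activated matrix. Among genes put into 10 equal classes by intron bases, the median log2 ratio of week 2 over naïve ran from 0.75 in class 1 (shortest) to -2.86 in class 10 (longest), and that of week 3 from 0.71 to -2.32. Il1rap belongs to class 10, and its log2 ratios of -2.48 and -2.61 differed from the medians of that class by 0.39 and -0.29. Il1rl1, Il18r1 and Il18rap belong to class 6, whose medians were -0.22 and -0.11, and Il1rl1 differed from them by -3.57 and -3.13. The classes were compared over all kept cells only. In ILC2-like clusters the log2 ratio of Il1rl1 to naïve was -4.13 at week 2 and -1.35 at week 3. The part of library chemistry, software, gene list and condition in the naïve contrast was not tested. These cannot be told apart with 1 naïve library.

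**Figure D2:**
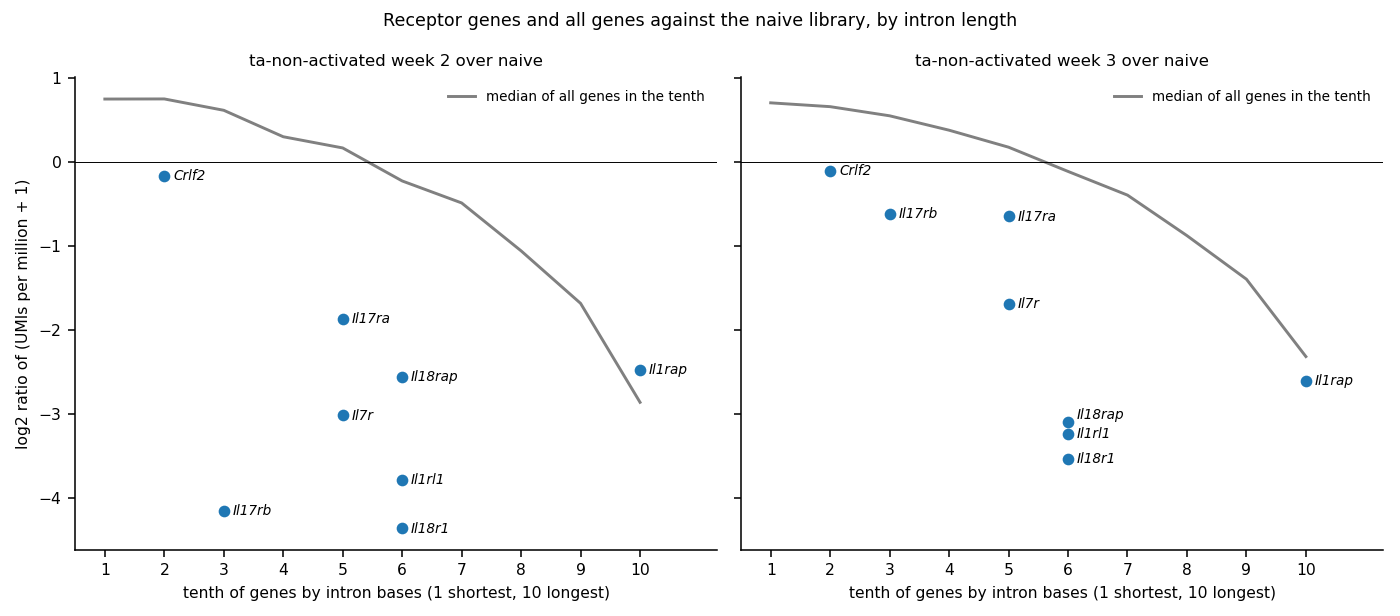
Log2 ratio of (CPM + 1) of each ta-non-activated library over the naïve library (vertical axis) against the class of genes by intron bases (horizontal axis, 1 shortest to 10 longest), with the grey line giving the median of all genes in each class and the points the 8 receptor genes. Il1rap sits near the line at class 10, and in the week 2 panel the other 7 genes sit below it.

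Against that line, read from the plot by intron length, Crlf2 in class 2 differed by -0.92 and -0.77 from the medians of genes with similarly short introns, although its own log2 ratios to the naïve library were -0.16 and -0.10. Il17rb differed by -4.78 from its class at week 2 and by -1.17 at week 3.

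The second question was how cells cultured with IL-2, IL-33 and TSLP differed from fresh ones, compared within each week and over both. At week 2 the cultured library was more than 2-fold higher in Crlf2 (2.88-fold), Il7r (3.35-fold) and Il18r1 (4.66-fold) and lower in Il17rb (2.22-fold, between 2 levels under 3 CPM), which is 3 higher and 1 lower of 8, beside 15.6% higher and 10.3% lower of 7532 genes. At week 3, Crlf2 (2.10-fold), Il18r1 (from 13.4 to 94.1 CPM) and Il18rap (10.1-fold) were higher and Il17rb (27.5-fold) lower, again 3 and 1 of 8, beside 18.9% higher and 16.3% lower of 8189 genes. Crlf2 and Il18r1 were past 2-fold at both weeks. Il1rap was under 10 CPM in both libraries at either week and so lay outside those background sets, as did Il17rb at week 2.

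ILC2-like clusters gave 3 higher (Crlf2, Il7r and Il18r1) and 1 lower (Il17rb) at week 2, beside 15.3% higher and 10.3% lower of all genes. At week 3 they gave 2 higher, Il18r1 (2.67-fold) and Il18rap (2.57-fold), and 2 lower, Il17rb (32.2-fold) and Il1rl1 (2.86-fold), beside 23.3% higher and 9.82% lower. Higher Il18r1 and lower Il17rb were thus present at both weeks in either set of cells. The week 3 cultured cells held less Il1rl1 than their fresh counterparts when ILC2-like clusters were compared (131 against 377 CPM) and more when all cells were (121 against 82.9 CPM).

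The 2 ta-activated libraries were then tested against the 2 ta-non-activated ones (edgeR, quasi-likelihood F test, p adjusted after Benjamini and Hochberg). In each group the 2 libraries are different weeks, so the spread within a group joins pool and week. Of 12643 genes, 0 (0%) had an adjusted p under 0.05. At an unadjusted p under 0.05 there were 2120 genes (16.8%), and DESeq2 on the same counts called 576 higher and 465 lower (8.23%). All 8 receptor genes were tested. With edgeR, 4 of 8 had an unadjusted p under 0.05, namely Il18r1, Il17rb, Crlf2 and Il18rap, and DESeq2 called 3 of them, Il17rb, Il18r1 and Il18rap.

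Il18r1 had a log2 fold change of 2.60 ± 0.58 (SE; edgeR adjusted p = 0.243, DESeq2 adjusted p = 0.00267), higher in 2 of 2 weeks. Il18rap followed with 2.30 ± 0.74 (edgeR adjusted p = 0.262, DESeq2 adjusted p = 0.0337), also in 2 of 2 weeks. The change of Il17rb was -5.65 ± 1.43 (edgeR adjusted p = 0.252, DESeq2 adjusted p = 4.48e-05), with the 2 ta-non-activated libraries themselves at 2.11 and 35.3 CPM. For Crlf2 it was 1.23 ± 0.35 (edgeR adjusted p = 0.254, DESeq2 adjusted p = 0.0736). Il7r stood at 1.04 ± 0.47, Il1rl1 at 0.17 ± 0.52, Il17ra at 0.18 ± 0.46 and Il1rap at -0.18 ± 0.46, with edgeR adjusted p from 0.344 to 0.881.

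Limited to ILC2-like clusters, the same edgeR test put Il1rl1 at -1.41 ± 0.98 and Il7r at -0.55 ± 0.98, the opposite sign to that over all kept cells, with adjusted p = 0.645 and 0.861. Il17rb was -6.17 ± 1.57 (edgeR adjusted p = 0.368), Il18r1 1.42 ± 0.93, Il18rap 1.11 ± 0.88 and Crlf2 0.58 ± 0.51. There, 1 of 8 receptor genes (Il17rb) had an unadjusted p under 0.05, beside 10.9% of all genes. The T-cell and immature T-cell marker sums given above were high in the week 3 ta-non-activated library, and their part in the results over all cells was not tested.

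Between weeks, within ta-non-activated ILC2s, Il7r, Il17rb and Il17ra were more than 2-fold higher at week 3 and 0 of 8 lower, beside 19.1% higher and 11.5% lower of 7722 genes. Il17rb showed the widest gap of the 8 (11.7-fold on the log2(CPM + 1) scale). In ILC2-like clusters 7 of 8 were higher, Il1rap being within 2-fold, and 0 lower, beside 18.5% higher and 23.1% lower of 7484 genes. Within ta-activated ILC2s, Il1rl1 (2.56-fold), Il18r1 (2.51-fold) and Il18rap (3.61-fold) were higher at week 3 and 0 of 8 lower, beside 3.08% higher and 2.37% lower of 7554 genes. ILC2-like clusters gave 3 and 0 again, with the same genes, beside 3.86% and 2.48% of 7587 genes. The 3 genes past 2-fold between the cultured libraries are the 3 neighbours on chromosome 1. The other 5 lay within 2-fold over all kept cells, among them Crlf2, which was lower at week 3 (122 CPM at week 2, 92.2 CPM at week 3).

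Clusters were made in each library on its own, with the 8 receptor genes left out of the clustering, so that their levels could be compared between clusters. In the naïve library Il1rl1 ranged from 731 to 1129 CPM over the 4 ILC2-like clusters, and Il18r1 from 19.1 to 119 CPM. Clusters 6 and 7 showed the opposite pair. Cluster 6 (425 cells), with T-cell and type 17 markers among its leading genes, held 114 CPM of Il1rl1 and 851 CPM of Il18r1. Cluster 7 (417 cells), with the NK cell or ILC1 marker Gzma among its leading genes, held 131 and 666 CPM. Il7r was high in both, at 2243 and 1295 CPM.

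Those 2 clusters made up 13.2% of naïve cells and 71.2% of naïve Il18r1 UMIs. After each cell with at least 2000 UMIs was thinned to 2000, 76.4% of cluster 6 cells and 59.1% of cluster 7 cells had an Il18r1 UMI. In the ILC2-like clusters the range was 3.53% to 14.2%. The accessory chain did not follow, since cluster 6 held 60.0 CPM of Il18rap and cluster 7 177 CPM, within the 59.3 to 177 CPM of the ILC2-like clusters. Naïve clusters 1 and 5, with epithelial genes among their leading genes, kept Il1rl1 at 627 and 943 CPM, and cluster 8, with endothelial and fibroblast genes, at 646 CPM. In each of these clusters the ILC2 markers had the largest sum of all lists. The sums were 3768 CPM against 1883 CPM (epithelial) in cluster 1 and 4520 against 1093 CPM (T-cell) in cluster 5. In cluster 8 they were 5876 against 2588 CPM (endothelial). The ILC2 sum was also the largest in clusters 6 (4179 against 3629 CPM, T-cell) and 7 (4904 against 1712 CPM, T-cell).

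The week 3 ta-non-activated library divided most clearly. Clusters 1 and 2, the ILC2-like ones, held 412 and 331 CPM of Il1rl1 and 1373 and 1575 CPM of Il7r. Cluster 2 (336 cells) passed the rule by a narrow margin, with ILC2 markers at 2161 CPM against 1644 CPM for T-cell markers. In clusters 0, 3, 4 and 5, where T-cell markers summed to between 6293 and 10037 CPM, Il1rl1 was 0 to 2.67 CPM and Il7r 51.3 to 122 CPM, although both proteins belong to the sort gate. Il18r1 was 0 to 1.61 CPM there. Il17rb made no such split, with 47.0, 18.1, 53.3 and 27.6 CPM in clusters 0, 3, 4 and 5 beside 42.9 and 41.5 CPM in clusters 1 and 2, and Il17ra and Crlf2 were likewise present in both kinds of cluster. Of the Il17rb UMIs of this library, 74.4% therefore lay outside the ILC2-like clusters.

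Cluster 6 of the same library (42 cells), with T-cell and type 17 markers among its leading genes, showed the pattern of naïve cluster 6. It held 58.3 CPM of Il1rl1 from 9 UMIs, 311 CPM of Il18r1 and 2343 CPM of Il7r. The week 2 ta-non-activated library was the most even, with Il1rl1 between 41.4 and 96.2 CPM and Il7r between 125 and 241 CPM over its 6 clusters, although its ILC2 markers summed to 11683 CPM, the highest of the 5 libraries.

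Cultured cells were uneven in Il1rl1. In the week 2 ta-activated library, cluster 1 held 112 CPM while clusters 0, 2 and 3 held 11.9, 10.2 and 3.51 CPM. The 10% of its cells with the most Il1rl1 UMIs held 94.3% of them, against 33.2% in the naïve library. This share was 46.4% and 63.8% in ta-non-activated cells and 55.0% in week 3 ta-activated cells. It also depends on how many cells had any Il1rl1 UMI (14.99% in week 2 ta-activated and 80.9% in naïve cells). Cluster 1 of the week 2 ta-activated library also had its highest ILC2 marker sum (14916 CPM). At week 3, cluster 1 held 254 CPM, cluster 0 137 CPM and clusters 2 and 3 48.1 and 35.8 CPM. Il7r had a narrower range, from 363 to 676 CPM in the ILC2-like clusters of week 2 and from 380 to 1033 CPM in those of week 3. In both cultured libraries cluster 2 had the highest sum of proliferation markers (3583 and 4208 CPM) and low Il7r for an ILC2-like cluster (363 and 380 CPM).

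**Figure D3:**
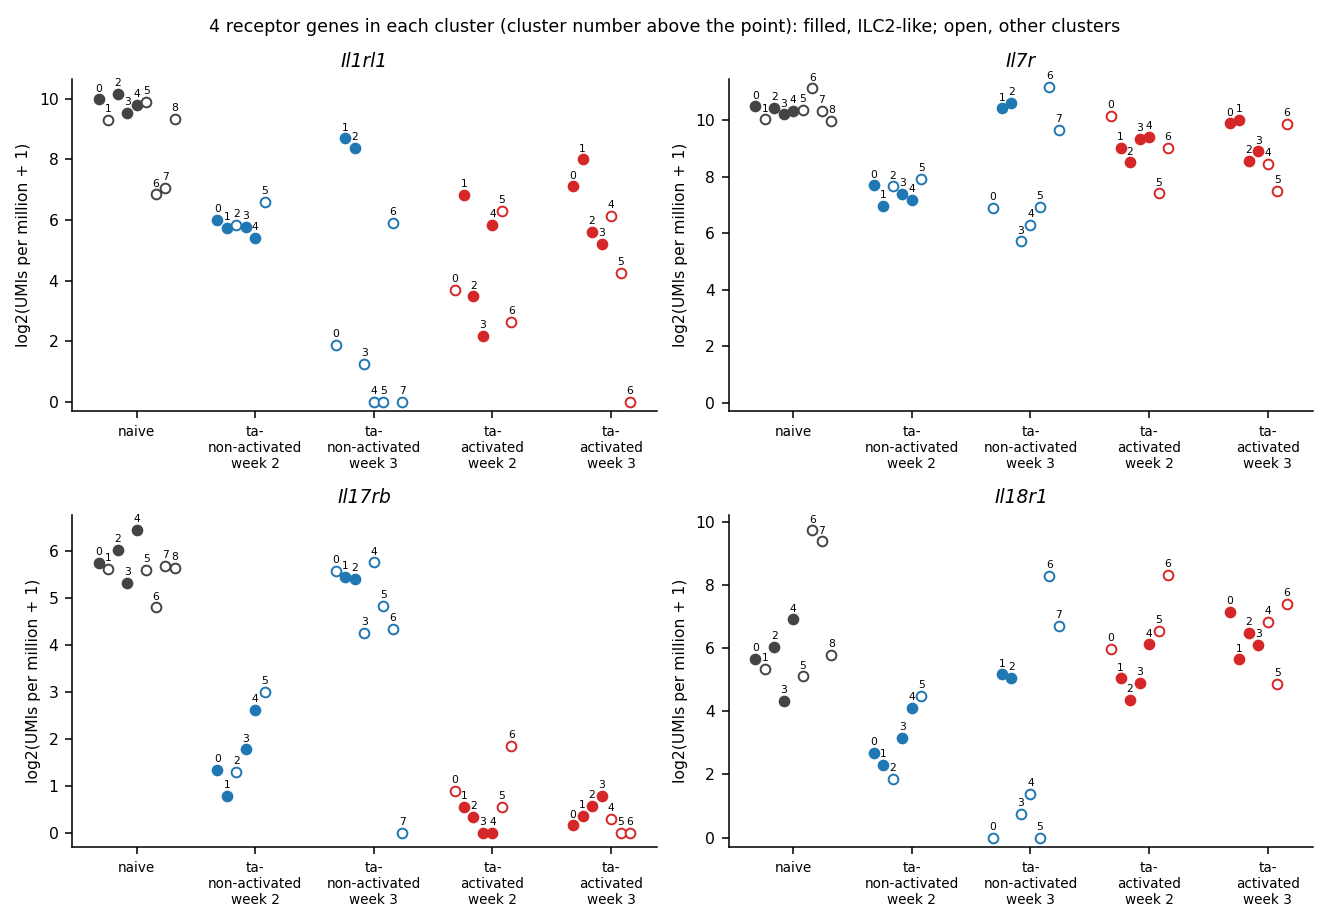
Levels of Il1rl1, Il7r, Il17rb and Il18r1 as log2(CPM + 1) in every cluster of the 5 libraries, with the cluster number above each point, filled points for ILC2-like clusters and open points for the others. In the week 3 ta-non-activated library Il1rl1 is high in clusters 1 and 2 and near 0 in clusters 0, 3, 4 and 5, where Il17rb is not, and in naïve clusters 6 and 7 Il18r1 is high where Il1rl1 is low.

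The third comparison concerned Il1rl1+ cells, defined as cells with at least 1 Il1rl1 UMI after thinning to 2000 UMIs. Cells under 2000 UMIs were left out, so that 6147 of 6389 naïve and 1495 of 1601 week 3 ta-non-activated cells entered. Il1rl1+ cells made up 67.3% of the thinned naïve cells (Clopper-Pearson 95% interval 66.1 to 68.5), 10.2% and 19.2% of ta-non-activated cells and 4.82% and 18.9% of ta-activated cells. Without thinning the shares were 80.9%, 48.3%, 25.2%, 14.99% and 45.5%, an order set in part by depth. In the clusters that were not ILC2-like of the week 3 ta-non-activated library the thinned share was 0.554%, at a median depth of 5531 UMIs in the largest of them against 3100 in cluster 1. The ta-activated mean minus the ta-non-activated mean was -2.81 percentage points (exact permutation test, two-sided, p = 0.667), and 2 libraries against 2 can give no p below 0.333.

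Among ILC2-like clusters, the Il1rl1+ share was 77.8% for naïve cells, 9.73% (week 2) and 47.6% (week 3) before culture and 6.19% and 20.1% after it. Of Il1rl1+ cells, 70.8% were ILC2-like in the naïve library, 75% and 98.3% in ta-non-activated and 86.0% and 94.5% in ta-activated cells, beside 41.5%, 78.8%, 25.7%, 66.0% and 87.9% of the other cells. ILC2 markers summed higher in Il1rl1+ cells than in the other cells in 5 of 5 libraries, by unlike amounts. The sums were 6870 against 5432 CPM in naïve, 12669 against 11502 and 4387 against 1701 CPM in ta-non-activated cells. In ta-activated cells they were 16802 against 7099 and 8430 against 8104 CPM. These sums and those that follow cover cells of all clusters and were not taken within ILC2-like clusters. Proliferation markers (Mki67, Top2a, Birc5, Cdk1, Ube2c and Pclaf) were lower in Il1rl1+ cells in 5 of 5, at 22.7 against 56.2 CPM in naïve, 120 against 217 and 24.4 against 440 CPM in ta-non-activated and 375 against 924 and 260 against 880 CPM in ta-activated libraries. Cluster 3 of week 3 ta-non-activated cells, which was not ILC2-like, held 2787 CPM of these markers.

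Among Il1rl1+ cells, Crlf2 was 48.8 CPM in naïve cells, 51.6 and 81.9 CPM before culture and 217 and 112 CPM after it. Il7r was 1325 CPM in naïve Il1rl1+ cells, 223 and 1556 CPM in ta-non-activated and 680 and 1073 CPM in ta-activated ones. For Il18rap the values were 125, 43.5, 67.9, 99.3 and 225 CPM, and for Il18r1 52.8, 5.43, 17.4, 40.4 and 72.5 CPM, the second of these from 2 UMIs. Il17rb stood at 56.5 CPM in naïve Il1rl1+ cells, 5.43 CPM (2 UMIs) and 45.3 CPM before culture and 0 and 0.711 CPM (0 and 1 UMI) after it. In these cells, as over all kept cells, both cultured libraries lay above the ta-non-activated ones for Il18r1 and Il18rap. At week 2 the Il17rb counts were too low to order the libraries.

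Tested between the groups by edgeR in Il1rl1+ cells alone, 0 of 5371 genes (0%) had an adjusted p under 0.05, 603 (11.2%) had an unadjusted p under 0.05 and DESeq2 called 71 higher and 8 lower (1.47%). Of the other 7 receptor genes, 5 had enough counts for the test, and Il1rap and Il17rb did not. Il18r1 had a log2 fold change of 1.98 ± 0.69 (edgeR adjusted p = 0.381), Il18rap 1.29 ± 0.59 (edgeR adjusted p = 0.480) and Crlf2 1.03 ± 0.59 (edgeR adjusted p = 0.542). Il7r was at -0.34 ± 0.90 and Il17ra at 0.35 ± 0.58. DESeq2 called 0 of these 5.

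Within each library, Il1rl1+ cells were then compared with the remaining cells by an exact paired permutation test over the 5 libraries, which can give no p below 0.0625. Il18r1 was lower in Il1rl1+ cells in 5 of 5 libraries (mean log2 ratio -0.82 ± 1.04 SD, p = 0.0625, adjusted over the 7 genes p = 0.109, exact). The naïve library gave the widest gap, 52.8 CPM in Il1rl1+ cells against 335 CPM in the others. In ILC2-like clusters alone it was lower in 4 of 5 (48.3 against 86.2 CPM in naïve cells), while week 2 cultured cells had more, 42.7 CPM against 31.9 CPM, from 10 and 113 UMIs.

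Il18rap was higher in Il1rl1+ cells in 5 of 5 libraries (mean log2 ratio 1.04 ± 0.90, exact p = 0.0625, adjusted p = 0.109), from 125 against 122 CPM in the naïve library to 67.9 against 12.4 CPM in week 3 ta-non-activated cells. In ILC2-like clusters it was higher in 4 of 5, with 139 against 146 CPM in naïve cells. Il17ra was also higher in 5 of 5 (0.56 ± 0.51, exact p = 0.0625, adjusted p = 0.109). Il17rb was counted as higher in 5 of 5, but 3 of these libraries had at most 4 UMIs on either side, and with 10 CPM added to both levels in place of 1 UMI it was higher in 4 of 5. Il1rap (mean log2 ratio 0.93) and Crlf2 (0.32) were higher in 4 of 5. With 10 CPM added the Il1rap mean was 0.24, and Il1rl1+ cells of the tumour-associated libraries held only 0 to 10 Il1rap UMIs. Il7r was higher in 3 of 5, with its widest gap in week 3 ta-non-activated cells (1556 against 521 CPM). In ILC2-like clusters that gap was 1569 against 1392 CPM, and Il7r was higher in 5 of 5 (mean log2 ratio 0.20).

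**Figure D4:**
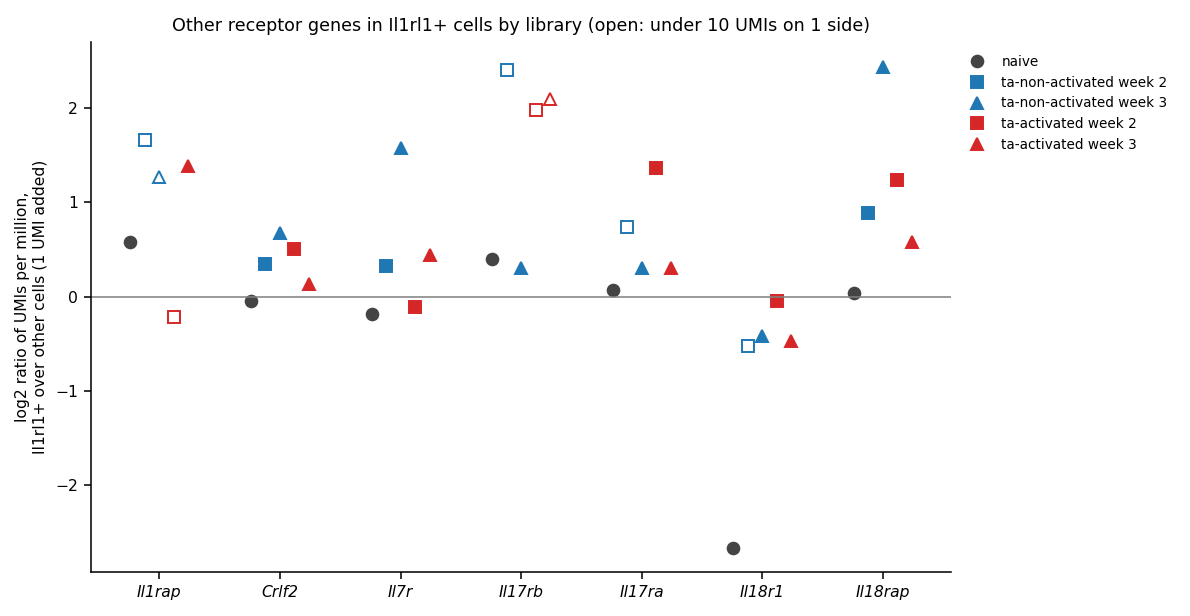
Log2 ratio of CPM in Il1rl1+ cells over the other cells of the same library (vertical axis, 1 UMI added to each count) for the other 7 receptor genes, with 1 point per library and open points where either side had under 10 UMIs. Il18r1 lies below 0 in all 5 libraries and farthest in the naïve one, Il18rap and Il17ra lie above 0 in all 5, and 3 of the 5 Il17rb points are open.

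In the plot of Il1rl1+ against other cells, Il18r1 and Il18rap lie on opposite sides of 0. Some of these gaps rest on few UMIs or are small, as for Il18r1 in week 2 cells (5.43 against 11.4 CPM before culture, 40.4 against 45.4 CPM after it), and in ILC2-like clusters each direction was present in 4 of 5 libraries. The smallest p these 5 libraries allow is above 0.05, so none of the 7 genes could pass that threshold.

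A receptor needs both of its chains, and the share of cells with a UMI of each chain was counted at 2000 UMIs per cell. For Il1rl1 with Il1rap it was 2.93% of naïve cells, 0.221% and 0.201% of ta-non-activated cells, 0 of 2822 week 2 ta-activated cells (which allows a share of up to 0.106% by 3 counts of the total, with a Clopper-Pearson upper bound of 0.131%) and 0.269% of week 3 ta-activated cells. For Crlf2 with Il7r it was 8.13% in naïve cells, 2.54% and 6.42% in ta-non-activated cells and 17.8% and 13.6% in ta-activated cells. Over cells of all clusters it was thus highest after culture. Both chains were not counted together within ILC2-like clusters, so this order was not tested there. In those clusters Il7r was detected in 90.7% of week 3 ta-non-activated cells, against 57.99% and 73.9% of ta-activated cells (weeks 2 and 3). Crlf2 went the other way, at 15.01% against 22.6% and 19.1%. Il17rb with Il17ra was seen in 30 naïve cells (0.488%), in 5 week 3 ta-non-activated cells (0.334%) and in 0 cells of the other 3 libraries. Il18r1 with Il18rap was found in 3.25% of naïve cells, 0.221% and 0.201% of ta-non-activated cells and 1.13% and 5.30% of ta-activated cells.

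**Figure D5:**
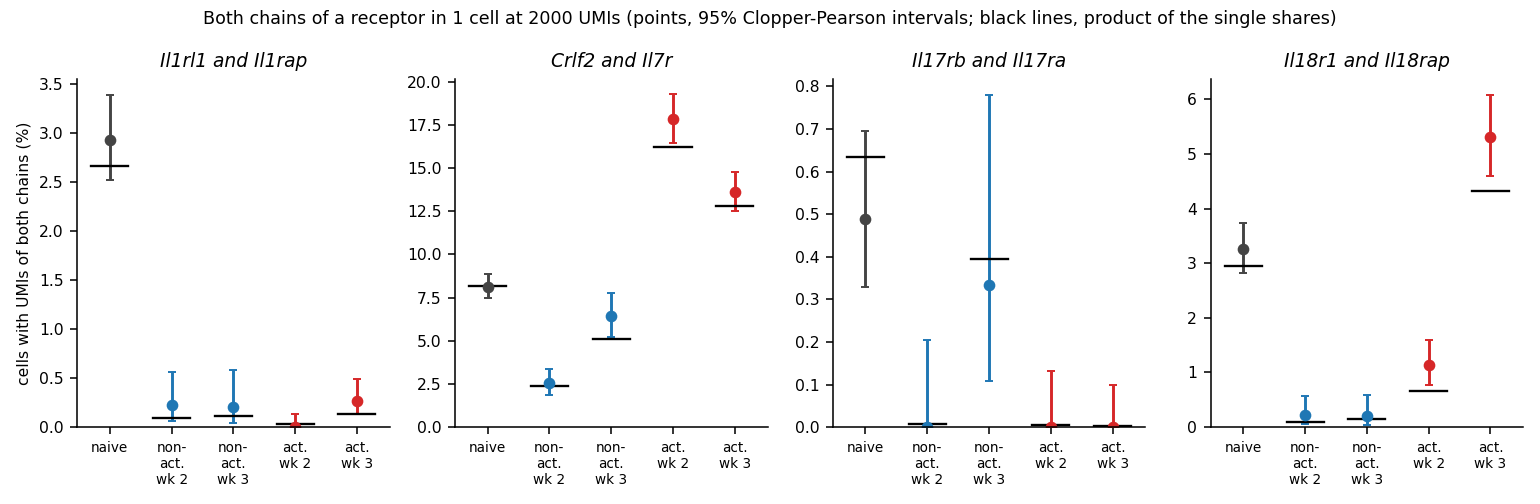
Share of cells with UMIs of both chains of a receptor at 2000 UMIs per cell, with 95% Clopper-Pearson intervals, in the naïve, ta-non-activated (non-act.) and ta-activated (act.) libraries of weeks (wk) 2 and 3. Cells of all clusters are counted, ILC2-like or not. Black lines give the product of the 2 single shares. Crlf2 with Il7r is highest in the cultured libraries (17.8% and 13.6%), Il1rl1 with Il1rap in the naïve library (2.93%), and most points lie near their black line.

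Set beside the product of the single shares, the plot of both chains shows the week 3 ta-activated Il18r1 and Il18rap value (5.30%, interval 4.61 to 6.07) above its product of 4.32%, and the week 2 value (1.13%, interval 0.777 to 1.60) above 0.654%. Crlf2 with Il7r was above its product in week 2 ta-activated cells (17.8%, interval 16.4 to 19.3, against 16.2%) and in week 3 ta-non-activated cells (6.42%, interval 5.23 to 7.79, against 5.07%). These products pool cells of all clusters. In week 3 ta-non-activated cells the shares of Crlf2 and of Il7r were each higher in ILC2-like than in other clusters (Il7r 90.7% against 20.95%). The pooled excess therefore cannot tell whether the 2 chains go together within either class, and this was not tested. At this depth a cell without a UMI can still express the gene. A mean of 2.19 of the 8 receptor genes was detected per naïve cell, 0.570 and 0.993 per ta-non-activated cell and 1.15 and 1.57 per ta-activated cell.

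Other genes of these pathways, 39 in 5 lists, were set beside the receptors over all kept cells. They were not taken within ILC2-like clusters. None of the 36 that could be tested passed the edgeR threshold, and 7 had an unadjusted p under 0.05, beside 16.8% of all genes tested. Of the 36, 24 had a positive and 12 a negative log2 fold change (6218 and 6425 of all genes), with a median of 0.44 beside -0.02 over all genes tested. By list, the median was 0.66 for 8 related receptors and decoys (5 positive), 0.22 for 10 IL-1 and IL-18 receptor signalling genes (6 positive), 0.44 for 4 IL-17 receptor signalling genes (3 positive), 0.61 for 11 TSLP and IL-7 receptor signalling genes (9 positive) and -0.59 for the 3 ligands tested (1 positive). The ligands themselves were near 0 in these sorted cells. Il33 was 0 to 0.494 CPM, Tslp 0 to 2.34 CPM, Il18 0.271 to 2.24 CPM and Il7 0.211 to 1.05 CPM over the 5 libraries, and Il25 had 0 UMIs in each.

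The widest difference was that of Il1r2, the decoy receptor that binds IL-1 without signalling. It was 3.24 CPM in naïve cells, 9.90 and 0.213 CPM in ta-non-activated cells, and 261 and 231 CPM after culture, a log2 fold change of 5.34 ± 1.66 (edgeR adjusted p = 0.261), higher in 2 of 2 weeks. Il17rd, a member of the IL-17 receptor family, had 2.28 ± 0.78 but stayed under 4 CPM in every library. Traf4, an adaptor that limits IL-17 receptor signalling, was 24.3 and 114 CPM before culture and 18.1 and 15.6 CPM after it (-2.04 ± 0.72, edgeR adjusted p = 0.281). The 114 CPM was that of the week 3 ta-non-activated library, where clusters that were not ILC2-like held 57.2% of the cells. The part of this mixture in the Traf4 difference was not tested. Traf5, another adaptor of that pathway, was 1.02 and 1.49 CPM before and 4.93 and 3.32 CPM after it (1.65 ± 0.52, edgeR adjusted p = 0.262).

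Over the 5 libraries, the genes whose profile lay closest to each receptor gene were searched among 9118 genes with at least 10 CPM in 1 library, by the root mean square difference of library-centred log2(CPM + 1) values. With 5 libraries that differ in depth, closeness is a description. Il1rl1 was nearest to Gramd1b (0.18), Ap1s3 (0.19) and Susd6 (0.23), and Il1rap to Rffl (0.08), Fyn (0.10) and Stk3 (0.12). Crlf2 lay nearest to Anxa11 (0.09), Fbxl8 (0.14) and Arl6ip5 (0.14), and the close profiles of Il7r included Bmt2 (0.14) and Map3k1 (0.16).

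The neighbours of Il17rb were less close, Dusp10 (0.31), Prkch (0.38) and Bambi (0.39), each high in the naïve and week 3 ta-non-activated libraries and under 9 CPM in the other 3. Il17ra was nearest to Rassf5 (0.06), Rlf (0.09) and Pan2 (0.09). Il18r1 was nearest to Pde1c (0.30), Edil3 (0.39) and Palld (0.40), and Il18rap to Cysltr2 (0.23), the cysteinyl leukotriene receptor 2 gene, Btla (0.28) and Hlf (0.31).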

How the data were processed

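Single-cell RNA of sorted lung ILC2s was sequenced with the 10x Genomics 3′ chemistry, and the deposited values are raw UMI counts per gene and barcode that the authors made with Cell Ranger on GRCm38. The submitters' notes name version 3.0.2, and the file headers give 6.0.0 for the naïve matrix and 3.0.2 for the other 4. Barcodes with 200 or more of 27726 common genes and under 5% mitochondrial UMIs were kept, and no doublet caller was run. Shares of cells used only cells with at least 2000 UMIs, each thinned to 2000. Each library was clustered without the 8 receptor genes (scanpy 1.11.5, 2000 variable genes, 30 components, 15 neighbours, Leiden resolution 0.5). The rule for ILC2-like clusters, which also leaves out clusters with far fewer UMIs per cell than their library and no leading ILC2 marker, was completed after the clusters had been seen. Ratios between single libraries used log2(CPM + 1), with counts of all genes at 10 CPM or more in either library as the background. Summed counts were tested with edgeR 4.0.16 (quasi-likelihood F test, Benjamini-Hochberg adjustment, adjusted p under 0.05) and, as an alternative, DESeq2 1.42.0. The edgeR procedure had first been tested on simulated data. Each edgeR SE was worked back from the test, as the absolute log2 fold change divided by the square root of F. Each library is 1 pool of mice, so p-values measure the spread between these pools, and contrasts with the single naïve library were not tested. The 5 ligands are named, and of the other pathway genes those that had the 4 largest log2 fold changes with the same direction in both weeks. Similar genes are the 3 closest profiles, of which 1 is not reported here. The receptor genes and all lists were chosen with earlier results of these data known.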

Additional observations from a re-analysis of the deposited data

Results flagged for a closer look

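Il1rl1 lay in opposite directions in the 2 weeks when cultured and fresh tumour-associated cells were compared. The log2 ratio of ta-activated over ta-non-activated was -0.27 at week 2 (46.7 against 56.3 CPM) and 0.54 at week 3 (121 against 82.9 CPM), with counting intervals that did not overlap in either week. In ILC2-like clusters the ratios were -0.07 and -1.51. With 1 library per group and week, the difference between the weeks was not tested.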

How the results depend on the processing

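Restricting the cells to ILC2-like clusters gave 3 receptor genes more than 2-fold lower at week 3 ta-non-activated than in naïve cells, 2 lower at week 3 ta-activated than ta-non-activated, and 7 higher at week 3 than at week 2 of ta-non-activated cells (5 with counts scaled to 10000 UMIs in each cell and averaged). It reversed the log2 ratio of Il7r at week 3 over naïve (0.12) and, in the edgeR test, Il1rl1 (-1.41) and Il7r (-0.55). Shares of Il1rl1+ cells, in the order naïve, ta-non-activated weeks 2 and 3 and ta-activated weeks 2 and 3, were 48.2%, 6.601%, 12.9%, 3.01% and 11.5% at 1000 UMIs, 80.9%, 48.3%, 25.2%, 14.99% and 45.5% without thinning, and 42.6%, 1.27%, 7.09%, 1.45% and 6.70% for 2 or more UMIs. In ILC2-like clusters they were 77.8% (naïve), 47.6% (ta-non-activated week 3) and 6.19% (ta-activated week 2). The highest Il1rl1 level of a cluster was 1437, 58.7, 368 and 167 CPM at a resolution of 0.2 (ta-activated week 2 aside) and 1467, 117, 476, 137 and 275 CPM at 1.0. DESeq2 called 1041 of 12643 genes (8.23%) and 3 of 8 receptor genes.

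Leaving out 1 library left the lone remaining sample assumed to vary like the other group. The edgeR calls then ranged from 0 to 1646 genes and from 0 to 1 receptor genes, with 1646 genes and Il17rb called without ta-non-activated week 2, 513 without ta-non-activated week 3, and 0 without either cultured library. The log2 fold changes ranged from -0.61 (without ta-activated week 3) to 0.74 for Il1rl1, from -0.39 to 0.10 (without ta-non-activated week 2) for Il1rap and from -0.22 (without the same library) to 0.76 for Il17ra. They ranged from -6.53 to -2.77 for Il17rb (lowest without ta-non-activated week 2, highest without week 3), from 1.83 to 3.15 for Il18r1 and from 1.13 to 3.01 for Il18rap (both lowest without ta-activated week 3 and highest without week 2) and from 1.04 to 1.46 for Crlf2. In Il1rl1+ cells the calls ranged from 10 to 893 genes and from 0 to 3 receptor genes, with 893 without ta-non-activated week 2, 666 and 3 (Il7r, Il18r1 and Il18rap) without ta-non-activated week 3, 10 without ta-activated week 2 and 17 without ta-activated week 3. There Il7r ranged from -1.09 to 1.91 (edgeR adjusted p = 0.0115 without ta-non-activated week 3) and Il17ra from -0.031 (without ta-non-activated week 2) to 1.11. Also in these cells, testing all genes with at least 1 count called 386 of 12665 genes and 1 of 7 receptor genes (Il17rb). DESeq2 called 79 of 5371 genes (1.47%), and all UMIs put Il17ra at -0.10.

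The week numbers mark time points, and it is not stated whether cultured and fresh cells of a week came from the same mice. The week 2 deviations from the 2 group means had a correlation of -0.06 over 12643 genes, which cannot settle whether the samples are paired. With week as a replicate block, edgeR called 0 genes over all cells. There 3 of 8 receptor genes had an unadjusted p under 0.05, beside 11.9% of all 12643 genes. In Il1rl1+ cells this block called 11 genes, and Il7r was 0.30. The added alternatives for Il1rl1+ against other cells, 10 CPM in place of 1 UMI and ILC2-like clusters only, were chosen after seeing the data. The cause of these shifts was not tested. Low UMI numbers of Il1rap and of Il17rb limit what can be read from them.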
